A study of Mus musculus with 6 samples.

Results

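Replication-dependent histone genes were examined in single epithelial cells of the mouse jejunum. The genes were taken by symbol: every symbol of the *Hist1h*, *Hist2h*, *Hist3h* or *Hist4h* series without -ps (a pseudogene mark) in its name, with at least 20 UMIs (unique molecular identifiers, each marking a captured mRNA molecule) over all called cell barcodes. Of 67 such symbols, 63 passed. They comprised all 6 H1 genes, 16 of 18 H2A, 16 of 18 H2B, 12 of 12 H3 and 13 of 13 H4 genes. Just inside the limit lay *Hist1h1t* with 41 UMIs and *Hist1h2ah* with 50. Outside it lay *Hist2h2aa2* with 6 UMIs, and *Hist1h2aa*, *Hist1h2ba* and *Hist1h2bq*, for which no UMI was counted. By locus, 51 of the 63 belong to the Hist1 cluster on chromosome 13, 9 to Hist2, 2 to Hist3 and 1 to Hist4.

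The samples were 6 single-cell libraries, 1 per group, from male wild-type C57BL/6J mice of about 30 weeks of age that ate their diet for 16 weeks before surgery, were returned to it afterwards and were sampled 5 weeks after surgery. The LFD sham group received a low-fat diet and a sham operation, the HFD sham group a high-fat diet and a sham operation, and the HFD VSG group a high-fat diet and vertical sleeve gastrectomy (VSG), in which most of the stomach is removed. Cells of 3, 3 and 2 mice were pooled in these groups, and each pool gave a library labelled crypts and a library labelled villi. With 1 library per group there is no replicate check of diet or operation, so neither could be tested. The crypt-labelled and villus-labelled libraries pair by pool but were not compared by a test. Every interval below covers counting error only. "Crypts" and "villi" are used here as labels, since in each group the villus-labelled library held more stem-like and cycling progenitor-like cells than the crypt-labelled one.

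Replication-dependent histone genes encode the proteins on which DNA is packed. Each nucleosome core holds H2A, H2B, H3 and H4, and the linker histones of the H1 family bind the DNA where it enters and leaves the core. Their mRNAs accumulate in S phase, while DNA is copied, and most end in a short stem-loop that is bound by the stem-loop binding protein SLBP instead of a poly(A) tail. In the gut, cells that copy their DNA lie in the crypt. They include stem cells at its base and the progenitors above them, while the absorptive cells of the villus do not divide. The chemistry used here primes on poly(A), so that a UMI from such a gene is a molecule that was captured although its usual mRNA end carries no tail. UMI sums count captured molecules by their 3′ ends and were not divided by transcript length. Differences in level below, between genes, cell classes or libraries, are therefore differences in captured molecules. The share of these mRNAs that was captured was not measured.

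The stem-loop itself is shown because it is the feature that sets these mRNAs apart in a poly(A)-primed assay. In the GENCODE transcripts (release M21, build GRCm38, the same as mm10), a 16-base stem-loop was found 21 to 58 bases after the stop codon (median 31) in 43 of 63 members, in 6 forms. Capitals mark the 6 bases on each side that pair to form the stem, and lower case marks the loop of 4 bases. Each line names an example and the number of members with that form.
*Hist1h1e*, form of 25 members: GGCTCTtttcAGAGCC
*Hist1h4d*, form of 7 members: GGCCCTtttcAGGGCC
*Hist1h3c*, form of 6 members: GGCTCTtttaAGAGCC
*Hist1h4i* and *Hist2h4*, form of 2 members: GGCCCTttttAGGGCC
*Hist1h4b* and *Hist1h4j*, form of 2 members: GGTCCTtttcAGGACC
*Hist2h2ac*, form of 1 member: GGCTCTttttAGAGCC
The first form was shared by 3 H1, 9 H2A, 8 H2B and 5 H3 genes and by 0 H4 genes, whereas the forms of *Hist1h4d*, *Hist1h4i* and *Hist1h4b* were found in H4 genes alone. The other 20 members held none in their annotated transcripts, and 13 of those 20 have 10 or fewer annotated bases after the stop codon, so that the letters searched were not there to be read.

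Upstream sequence is shown for 6 members that cover all families, since promoter elements of the histone families differ. The windows are the 120 bases before the RefSeq transcript start (GRCm38.p6), written 5′ to 3′ on the gene's own strand. Capitals mark 3 motifs on either strand: TATAAA, known as the TATA box, then the letters CCAAT of the CCAAT box, and the H1 box AAACACA.
*Hist1h1b*, chr13:21780626-21780745, minus strand: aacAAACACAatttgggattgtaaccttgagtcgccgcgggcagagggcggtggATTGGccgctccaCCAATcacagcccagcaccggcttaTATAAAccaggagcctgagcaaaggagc
*Hist1h1e*, chr13:23622559-23622678, minus strand: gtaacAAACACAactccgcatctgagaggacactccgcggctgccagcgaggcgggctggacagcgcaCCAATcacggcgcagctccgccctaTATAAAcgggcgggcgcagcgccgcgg
*Hist1h2ae*, chr13:23571221-23571340, minus strand: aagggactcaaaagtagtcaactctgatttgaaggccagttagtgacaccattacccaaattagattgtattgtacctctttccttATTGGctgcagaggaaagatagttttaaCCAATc
*Hist1h2bj*, chr13:22043078-22043197, plus strand: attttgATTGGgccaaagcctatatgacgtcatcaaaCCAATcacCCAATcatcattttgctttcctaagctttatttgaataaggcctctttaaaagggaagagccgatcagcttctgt
*Hist1h3e*, chr13:23562386-23562505, minus strand: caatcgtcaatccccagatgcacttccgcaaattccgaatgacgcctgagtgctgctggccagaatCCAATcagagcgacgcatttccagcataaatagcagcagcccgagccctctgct
*Hist1h4d*, chr13:23581448-23581567, plus strand: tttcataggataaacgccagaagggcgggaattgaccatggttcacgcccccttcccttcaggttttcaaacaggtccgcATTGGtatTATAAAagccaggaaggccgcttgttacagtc
Over the longer RefSeq promoter windows (250 bases before to 50 after the start), 57 of 63 members could be matched. AAACACA, a sequence known from H1 promoters, occurred on either strand in 5 of 6 H1 genes, 1 of 15 H2A, 1 of 14 H2B, 0 of 10 H3 and 0 of 12 H4 genes, beside 7.18% of 32851 promoters of all genes. CCAAT occurred in every matched H1, H2A, H2B and H3 gene and in 3 of 12 H4 genes (37.4% of all promoters). The octamer ATTTGCAT occurred in 6 of 15 H2A and 6 of 14 H2B genes and in none of the H1, H3 and H4 genes (1.74% of all promoters). TATAAA was found in 33 of 57 members (13.6% of all promoters). These are matches of letters and not measured binding.

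The members yielded 517193 UMIs, and few genes held most of them. H1 genes accounted for 38.7%, H2B for 30.6%, H2A for 12.8%, H4 for 10.7% and H3 for 7.18%. *Hist1h2bc* and *Hist1h1e* together held 45.6% of all member UMIs, and 10 genes held 78.7%. *Hist1h2bc* supplied 84% of the H2B UMIs, *Hist1h4d* 52.7% of H4, *Hist1h1e* 51.5% of H1, *Hist1h3c* 37.7% of H3 and *Hist1h2ae* 26.2% of H2A.

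After filters on genes, mitochondrial share and doublets, 3000 to 4698 cells per library remained, with median depths of 9340 to 30399 UMIs per cell, the deepest being the HFD VSG villi library. Any 2 libraries shared 17 to 43 called barcodes, at most 0.45% of the smaller library. Cells were clustered without any histone gene among the variable genes, and clusters were named from markers. The enterocyte-like class joined 5 clusters, 2 of them, with 875 of 8826 cells, led by immune genes (antigen presentation genes such as *H2-Aa* and *Cd74*, and interferon-induced genes such as *Ifit1* and *Isg15*). The class that the results turn on, called cycling progenitor-like, was led by *Top2a*, *Pclaf*, *Ube2c*, *Nusap1* and *Mki67*, genes of DNA replication and mitosis. Its 10 markers summed to 3141 to 4075 CPM (UMI counts scaled to the same total, 1000000, for each class and library), against 12.6 to 34.7 CPM in enterocyte-like cells. The same markers summed to 236 to 622 CPM in stem-like, 159.8 to 1124 CPM in early progenitor-like and 212 to 882 CPM in goblet-like cells. The cycling progenitor-like class held 43, 231, 46, 119, 90 and 363 cells in the LFD sham crypts, LFD sham villi, HFD sham crypts, HFD sham villi, HFD VSG crypts and HFD VSG villi libraries, and values of 6 libraries are given in this order throughout.

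Captured histone mRNA was most abundant, per total UMIs, in cycling progenitor-like cells in every library. H1 genes summed there to 3428, 3667, 2682, 2408, 3332 and 1920 CPM, and core histone genes to 4097, 4383, 3055, 2864, 3058 and 2751 CPM. In enterocyte-like cells the H1 sum was 93.8 to 236 CPM and the core sum 339 to 435 CPM over the 6 libraries, so that the lowest cycling value lay above the highest enterocyte value for both. Stem-like cells, which were led by *Olfm4*, *Gkn3* and *Lgr5*, stood far nearer to enterocyte-like than to cycling cells, with 115 to 374 CPM of H1 and 348 to 532 CPM of core histones. Their summed S-phase genes (1755 to 2394 CPM) were nearer to those of cycling cells (2153 to 3333 CPM), to a degree that varied by library. The sums were 1871 and 2153 CPM in HFD sham crypts but 1878 and 3333 CPM in HFD VSG crypts. Their summed G2 and M genes differed more (1691 to 2936 CPM against 9791 to 11376 CPM). Goblet-like, tuft-like and enteroendocrine (EEC)-like cells had median H1 sums of 574, 536 and 572 CPM. Paneth-like cells held 44.7 to 208 CPM of H1 and 83.4 to 225 CPM of core histones, the lowest core sum in each library. Paneth markers alone took 593075 to 652961 CPM there, which leaves less of the fixed total for every other gene. Droplets with under 100 UMIs, which hold free RNA, carried 124 to 317 CPM of H1 and 288 to 505 CPM of core histones. The levels of enterocyte-like and stem-like cells are of the size found in free RNA, and its part in them was not tested.

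**Figure D1:**
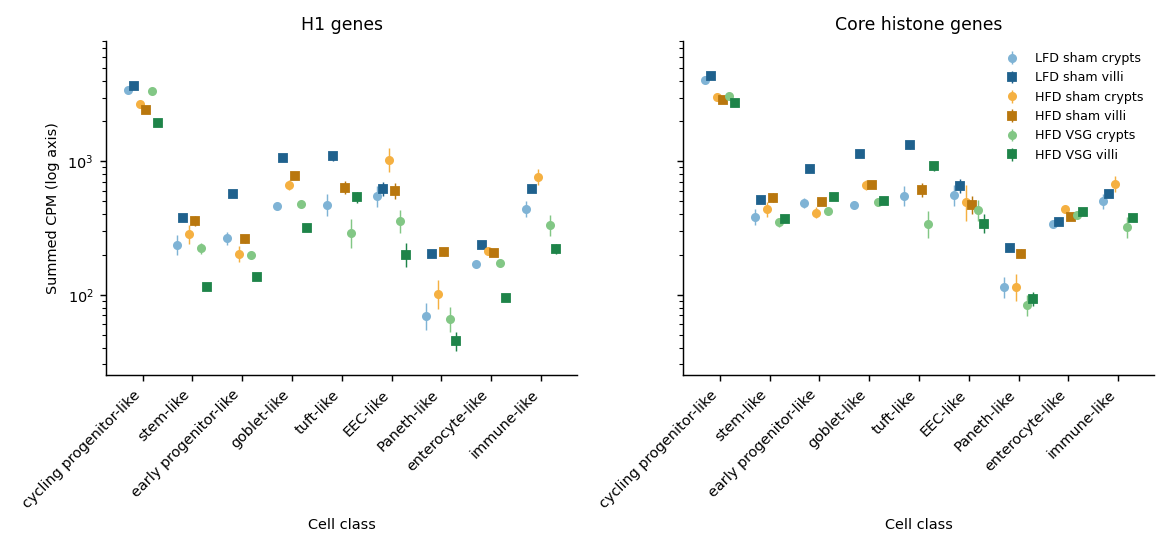
Summed CPM of H1 genes (left) and core histone genes (right) on a log axis, by cell class and library; points are libraries with at least 20 cells of the class and bars are exact Poisson limits of 95%. Cycling progenitor-like cells lie at 1920 to 3667 CPM of H1 and 2751 to 4383 CPM of core histones, above every other class in each library.

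The genes differed in how closely they followed the cycling class. The ratio of CPM in cycling progenitor-like to enterocyte-like cells, with sums under 3 UMIs set to 3, was above 2-fold in every library with a value for 59 of 63 members, beside 36.1% of 15666 genes of the whole table. Setting sums to 3 in the enterocyte-like cells alone gave 56 members (27.5% of all genes), *Hist1h1t*, *Hist1h4m* and *Hist3h2ba* then being below. For 38 members both classes had at least 3 UMIs in every library, and 36 of these were above 2-fold in each. The share over all genes under that limit is not given, so how unusual this count is cannot be read from it. A class set against another class of the same clustering is a description and not a test. By family, the median ratio was 18.5 for H1, 61.2 for H2A, 71.8 for H2B, 33 for H3 and 14.3 for H4.

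**Figure D2:**
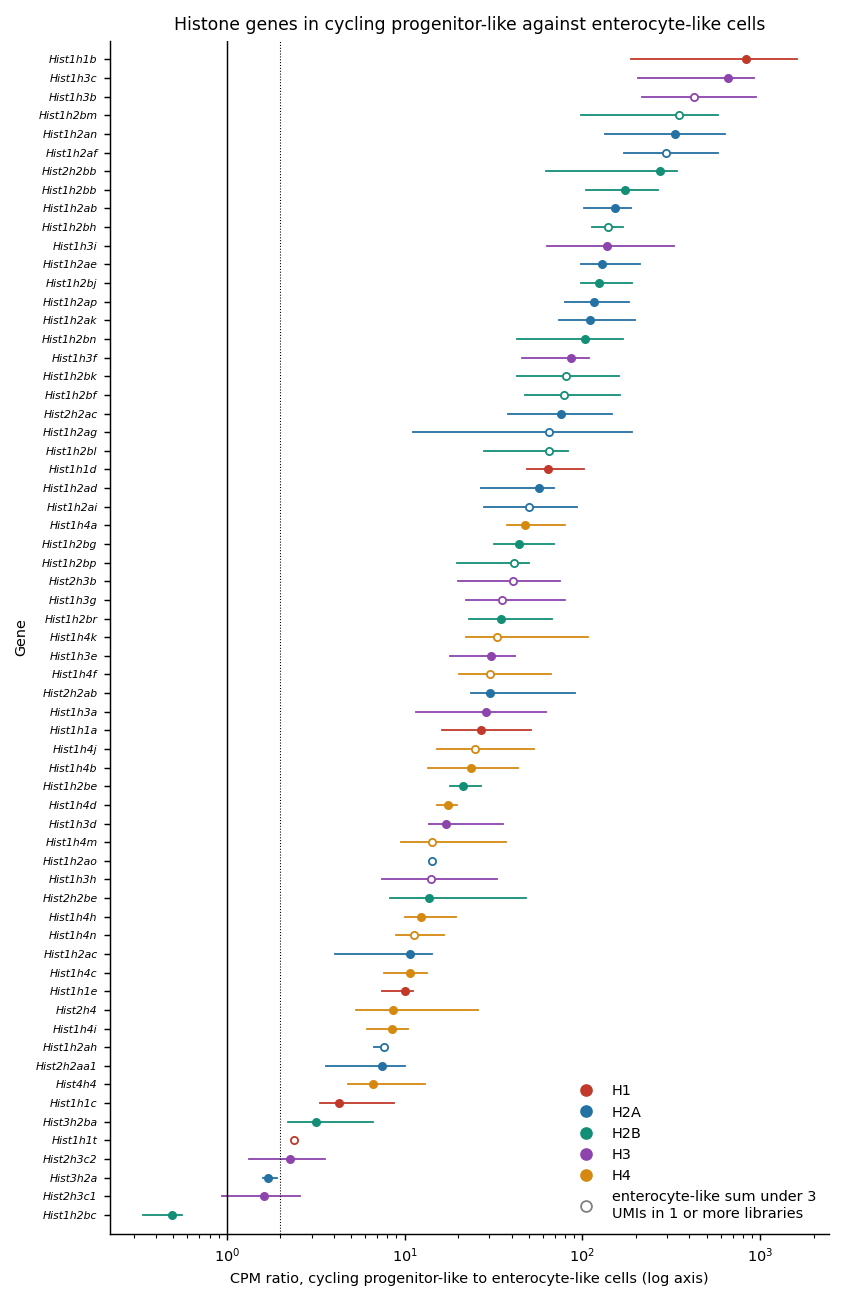
Ratio of CPM in cycling progenitor-like to enterocyte-like cells for each member (rows), on a log axis; the point is the median over libraries with a value, the line runs from the lowest to the highest library, and open points mark members with fewer than 3 enterocyte-like UMIs in 1 or more libraries. *Hist1h1b* has the highest median, 838, and *Hist1h2bc* alone lies below 1 in all libraries. In each villus-labelled library the ratio of *Hist1h1b* is 187 to 325, and some other member lies above it.

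Among the H1 genes, *Hist1h1b* followed the cycling class most closely. It is at chr13:21779883-21780625 on the minus strand, a gene of a single exon whose annotated transcript ends at the stop codon. Its level in cycling cells was 1269, 1273, 1050, 814, 1552 and 1054 CPM, and in enterocyte-like cells 0.939, 6.8, 0.775, 2.66, 0.965 and 3.25 CPM, a median ratio of 838 (187 to 1608). By library the ratio was 1352, 187, 1354, 306, 1608 and 325, lower in the villus-labelled libraries, so the median lies near none of them. Stem-like cells held only 13.3 to 35.6 CPM. After each cell was thinned to 1500 UMIs, 41.3 to 65.6% of cycling cells had a *Hist1h1b* UMI, against 0 to 7.53% of stem-like and 0 to 2.03% of enterocyte-like cells. Before thinning the shares were 63 to 93.1% at median depths of 16444 to 41563 UMIs and, in enterocyte-like cells, 1.08 to 10.6% at 14254 to 34565 UMIs. Droplets of free RNA held 6 to 70.2 CPM of the gene, and its part in the enterocyte-like share was not tested.

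*Hist1h1e*, the most abundant H1 gene, was also found outside cycling cells. It lies at chr13:23620629-23622558 on the minus strand, and its annotated transcript runs 1153 bases past the stem-loop. Cycling cells held 1360, 1607, 1029, 1082, 1243 and 584 CPM and enterocyte-like cells 123, 171, 138, 140.3, 112 and 55 CPM, so that the ratio was 7.48 to 11.1. The HFD VSG villi library was the lowest in both classes. Of the 90-base stretches of its transcript, 73.8% occur in no other gene. Most of the others lie in *Hist1h2be*, whose annotated span overlaps it on the same strand, and reads from there cannot be told apart between these genes.

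Of the remaining H1 genes, 2 had ratios between these, 1 lay below both and 1 had too few UMIs. *Hist1h1d* had a median ratio of 64.1 (48.6 to 102) and 104 to 270.4 CPM in cycling cells. *Hist1h1a* had a ratio of 27 (16.2 to 51.6) and 72.7 to 179 CPM. *Hist1h1c* had the lowest ratio of the 5 with substantial counts, 4.25 (3.33 to 8.76), with 352, 346, 281, 230.2, 207 and 105 CPM in cycling and 40.1, 45.1, 66.9, 53.6, 55 and 31.6 CPM in enterocyte-like cells. *Hist1h1t*, the testis H1, had 2 UMIs in cycling and 7 in enterocyte-like cells over all libraries, and its ratio of 2.39 rests on a sum set to 3.

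The make-up of the H1 total thus differed between classes. In cycling cells *Hist1h1b* gave 33.8 to 54.9% of H1 UMIs and *Hist1h1e* 30.4 to 44.9%. In enterocyte-like cells *Hist1h1b* gave 0.363 to 3.46%, *Hist1h1e* 58.6 to 72.5% and *Hist1h1c* 19.1 to 33.7%. For both genes the ranges of the 2 classes did not overlap. Stem-like cells lay near enterocyte-like cells for *Hist1h1e*, with 55.9 to 72%, and between the 2 classes for *Hist1h1b*, with 5.6 to 12.1%. *Hist1h1d* gave 5.19 to 8.17% in stem-like cells, near the 5.41 to 7.82% of cycling cells and above the 1.4 to 2.35% of enterocyte-like cells.

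Among the core histone genes, H2A genes followed cycling cells with 1 exception. *Hist1h2ae* reached 361, 390.2, 256, 255, 338 and 448 CPM in the cycling class, where enterocyte-like cells held 1.45 to 4.24 CPM, a median ratio of 129. *Hist2h2ac* had a ratio of 76.2 (38.1 to 147) and *Hist1h2ab* of 152 (102 to 189). *Hist3h2a*, at chr11:58954685-58956830 on the plus strand, was nearly level, with 11.3 to 19.4 CPM in cycling and 7.06 to 10.1 CPM in enterocyte-like cells, a ratio of 1.6 to 1.92. Its transcript is annotated for 1643 bases past the stem-loop. In enterocyte-like cells *Hist3h2a* made up 26.5 to 41.4% of the H2A UMIs, against 0.829 to 1.74% in cycling cells.

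In the H2B family *Hist1h2bc* stood apart from all other members. It is at chr13:23684199-23692908 on the plus strand, and its annotated transcript has more than 1 exon, 742 bases after the stop codon and no stem-loop of the form searched. Its level was lower in cycling than in enterocyte-like cells in 6 of 6 libraries, with 121, 109.9, 195, 141, 111 and 117 CPM against 246, 217, 348, 286, 328 and 337 CPM, a ratio of 0.337 to 0.562. Droplets of free RNA held 174, 132, 279, 164, 277 and 225 CPM of this gene, more than the cycling cells in 6 of 6 libraries and less than the enterocyte-like cells in each, and the part of free RNA in the values of any class was not tested. Early progenitor-like cells held 252 to 343 CPM, stem-like cells 92.9 to 214 CPM, goblet-like cells 107 to 169.6 CPM and Paneth-like cells 14.7 to 39.9 CPM. The highest level, 199 to 511 CPM, was in an unnamed cluster of 1061 cells led by *Ly6m*, *Ada*, *Clca4a* and *Nt5e*, in which it lay above the enterocyte-like level in 5 of 6 libraries. *Hist1h2bc* was 92.9 to 98.4% of the H2B UMIs in enterocyte-like cells and 13.5 to 29.5% in cycling cells. The other H2B genes followed the cycling class: *Hist1h2be* had a ratio of 21.4 (17.9 to 26.9) and *Hist1h2bj* of 124 (98.6 to 191).

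The core genes with the highest median ratios, *Hist1h3c* and *Hist1h3b*, belong to the H3 family. The median over the family was 33, below the 61.2 of H2A and the 71.8 of H2B. *Hist1h3c* reached 449.7, 548, 402, 331, 435 and 228 CPM in the cycling class, where enterocyte-like cells held 0.487 to 2.68 CPM, a median ratio of 657 (205 to 924), and *Hist1h3b* had 424 (216 to 949). *Hist1h3f* had 86.7 (45.7 to 109.7). *Hist1h3e* was lower at 30.6 (18.1 to 41.9), and in enterocyte-like cells it was the first H3 gene, with 38.6 to 45.9% of H3 UMIs, where *Hist1h3c* led in cycling cells with 43.2 to 53.2%. *Hist2h3c1* (1.61, 0.933 to 2.58) and *Hist2h3c2* (2.27, 1.34 to 3.57) were not above 2-fold throughout. *Hist2h3c1* holds no 90-base stretch of its own, so its counts are uncertain.

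H4 genes had the narrowest range of median ratios of the 5 families, from 6.63 for *Hist4h4* to 47.6 for *Hist1h4a*. *Hist1h4d* made up 58.6 to 66.3% of H4 UMIs in cycling and 51.7 to 55.7% in enterocyte-like cells, while its level was 356 to 608 CPM in the first class and 19.7 to 36 CPM in the other. *Hist1h4h* had a ratio of 12.4 (10.1 to 19.4) and *Hist1h4c* of 10.7 (7.7 to 13.4).

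The ratios also differed with the annotated 3′ end, which the choice of members did not use. In 22 members, 4 of them H1 genes, the stem-loop is followed by more than 100 further annotated bases, and their median ratio was 10.7 (1.61 to 139). In 21 members, none of them an H1 gene, the annotation ends within 100 bases of the stem-loop, and their median ratio was 65.2 (7.5 to 657). The 13 members without a stem-loop and with 10 or fewer annotated bases after the stop codon had a median of 104 (7.62 to 838). The other 7 members without a stem-loop, *Hist1h2bc* among them, had a median of 34.9 (0.491 to 47.6). The groups overlap widely, the genes of a cluster are near copies of each other, and an annotation is not a measured mRNA end. Near copies also limit the counts: in 25 of 63 members fewer than 50% of the 90-base stretches are unique to the gene, in 14 more than 90% are, and *Hist1h2ap* has 7.63%.

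The share of H1 among all member UMIs, which needs no scaling to depth, compared linker with core histones. In cycling cells it was 45.6, 45.6, 46.7, 45.7, 52.1 and 41.1%. In 4 libraries the share was 45.6 to 46.7%, whereas HFD VSG crypts lay above (51.3 to 53%) and HFD VSG villi below (40.8 to 41.5%), both outside the counting limits of the other libraries. In stem-like cells it was 38.1, 42.2, 39.3, 40.2, 39.1 and 23.9%, and in enterocyte-like cells 33.6, 40.3, 32.9, 35.2, 30.2 and 18.4%. Without *Hist1h2bc* the enterocyte-like share became 54.4 to 71%, above every cycling value with *Hist1h2bc* left out (42.2 to 53.1%), so the order of the classes depends on that 1 gene. EEC-like cells had 36.9 to 67.6%, the highest value resting on 136 member UMIs of 21 cells in the HFD sham crypts library (limits 59.1 to 75.4%).

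**Figure D3:**
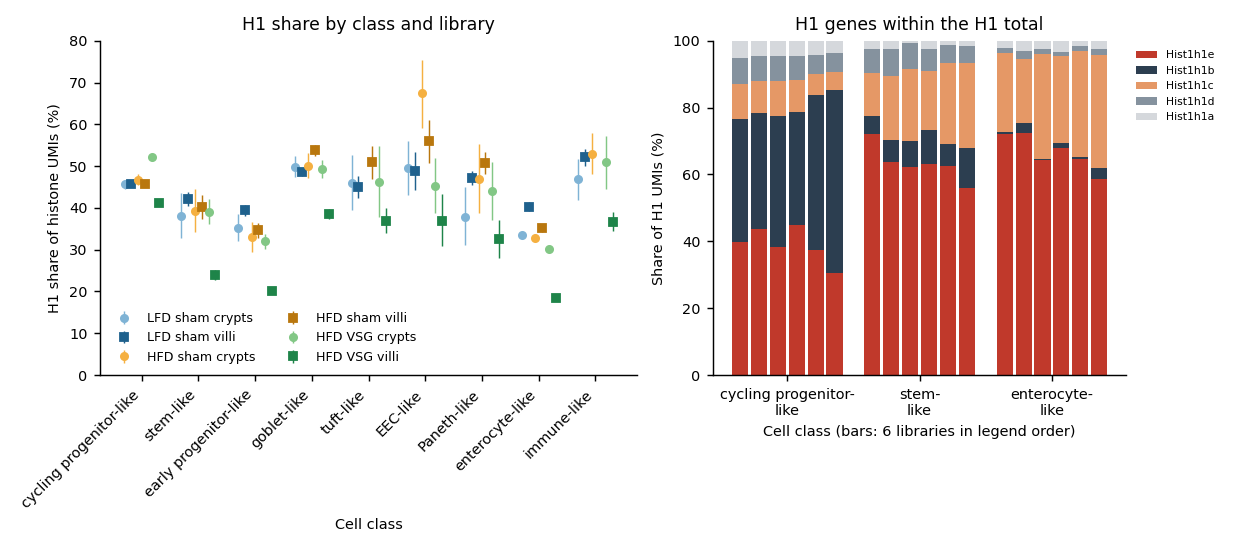
Left, H1 genes as a percentage of all member UMIs by cell class and library, with exact Clopper-Pearson limits of 95%; right, the share of each H1 gene within the H1 UMIs of 3 classes, with a bar per library. The HFD VSG villi library is the lowest point in each class, and *Hist1h1b* gives 33.8 to 54.9% of H1 in cycling cells against 0.363 to 3.46% in enterocyte-like cells.

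The HFD VSG villi library had the lowest H1 share in 14 of 14 classes and unnamed clusters, also with *Hist1h2bc* left out, and in 11 of 14 with *Hist1h1e* left out. In an unnamed cluster led by *Pla2g4c* only 2 libraries had enough cells. In some classes and clusters its counting limits overlapped those of another library. In the cluster led by *Ly6m* and *Ada* it had 25.9% (20.9 to 31.5%) against 27% (22.2 to 32.2%) in HFD sham villi. By gene, *Hist1h1e* was lowest in HFD VSG villi in 11 of 13 classes and clusters. It was below the HFD sham villi library beyond its counting limits in 11 of 11 that could be compared, by a log2 ratio of -2.29 to -0.57 (median -1.37). *Hist1h1c* was below in 9 of 9, *Hist1h1d* in 5 of 5 and *Hist1h1a* in 4 of 4. *Hist1h1b* was not: of 9, 3 were below and 3 above. Among core genes *Hist1h2bc* was below in 1 of 12 and above in 5, *Hist1h4d* below in 6 of 9 and above in 0, and *Hist1h2ae* below in 1 of 6 and above in 5. For these counts by gene the share over all genes is not given. Over the cycling, stem-like, early progenitor-like, goblet-like and enterocyte-like classes, 19 of 22 pairs of an H1 gene and a class were below and 1 above, and 44 of 89 pairs of a core gene and a class were below and 16 above, beside 40.4% below and 18.5% above over all genes. The median log2 ratio of all genes in these 5 classes was -0.28 to -0.02, and relative to it 17 H1 and 30 core pairs were below and 1 and 20 above, beside 27.5% below and 28.6% above over all genes. HFD VSG villi is the library with the greatest depth, and its free-RNA droplets had an H1 share of 27.6% against 25.5 to 42.7% over all libraries. In cycling cells its H1 share stayed the lowest after thinning each cell to 1500 UMIs. The part of depth and free RNA in the other classes and in the values by gene was not tested. The HFD VSG crypts library, from the same pool of mice, had H1 shares of 52.1% in cycling and 39.1% in stem-like cells. It had 49.3% in goblet-like and 30.2% in enterocyte-like cells. The mice pooled and the surgery cannot be told apart, and the part of the single library was not tested.

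Histone levels were then followed over single cells. Stem-like and cycling progenitor-like cells were ranked in each library by the share of their UMIs in a list of 51 genes of G2 and M phases, and separately in a list of 41 genes of S phase, neither holding a member, and cut into 4 equal ranges. From the lowest to the highest G2/M range, the median over libraries was 286, 257, 1860 and 4418 CPM for H1 and 336, 454, 2398 and 4527 CPM for core histones. The S-phase list in the same ranges had medians of 1498, 2900, 3119 and 1916 CPM. Folds and peak ranges in this paragraph are for H1 and core histones summed together. The highest range held the most in 6 of 6 libraries, 8.17 to 19.4 times the lowest range. This ranking largely separates the 2 classes again, since genes that lead the cycling class are in the G2/M list, so these values restate the difference between them. Over the S-phase ranges the highest range held 1.3 to 3.83 times the lowest, and the highest level lay in range 2, 3 or 4 depending on the library. *Hist1h2bc* went the other way over the S-phase ranges, with medians of 232, 169.9, 94.7 and 60.2 CPM. Among cycling progenitor-like cells alone, in ranges of 10 to 91 cells, the highest G2/M range held 1.66 to 11.8 times the lowest, with the most in range 3 in 3 libraries and range 4 in the other 3, while the S-phase ranges gave 0.541 to 2.77 times. These ranges are cuts of a score and not phases, and many cells lie near each cut.

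**Figure D4:**
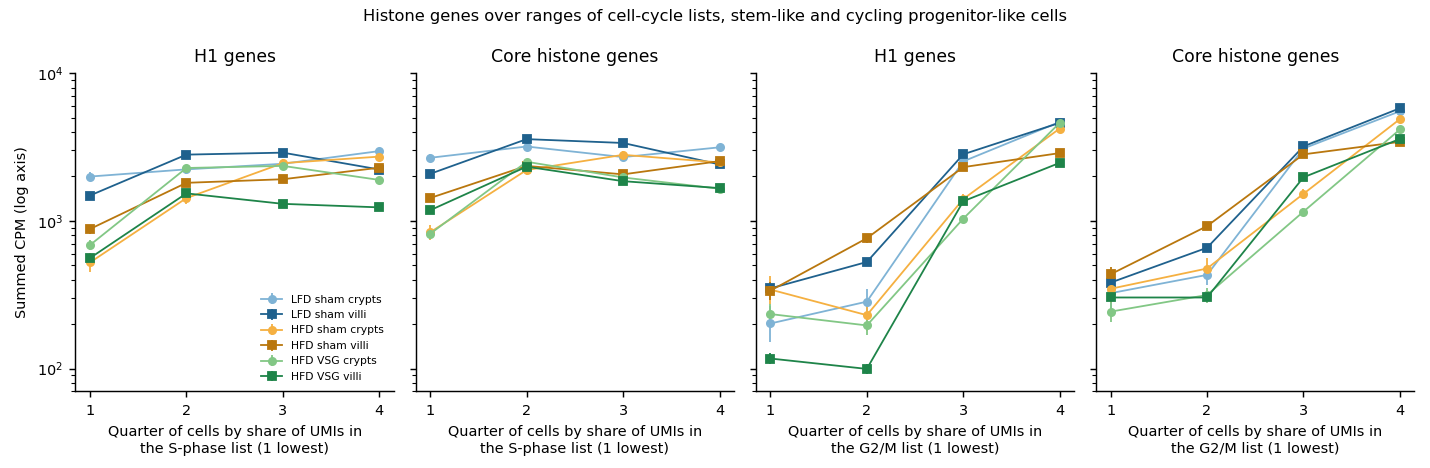
Summed CPM of H1 and core histone genes (log axis) in 4 ranges of stem-like and cycling progenitor-like cells, ranked by the S-phase list or the G2/M list; lines are libraries and bars exact Poisson limits of 95%. The ranking by the G2/M list largely separates the 2 classes. For H1 and core genes summed together, the top G2/M range is 8.17 to 19.4 times the lowest, and the top S-phase range 1.3 to 3.83 times.

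Cycling cells were themselves very unequal. Per cell, the sum of all members at the 90th percentile was 17.6 to 39.3 times that at the 10th, and the median cell held 7348, 7235, 2096, 4250, 5879 and 4761 CPM. Among epithelial cells, the 5% with most member UMIs held 30.5 to 59.7% of them, or 28.4 to 44.4% after thinning each cell to 1500 UMIs. For core histones without *Hist1h2bc* this was 54.4 to 70% (52.2 to 59.7% after thinning), and for *Hist1h2bc* alone 15.3 to 24.7% (26.3 to 36% after thinning), so the gap between them is smaller at equal depth. Cycling progenitor-like cells made up 1.08 to 9.34% of epithelial cells and held 17.9 to 55.4% of member UMIs.

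Genes that act on histones were compared between the same classes. *Slbp*, whose protein binds the stem-loop, was 2.85 to 3.83 times higher in cycling than in enterocyte-like cells, at a median of 106 CPM in cycling cells. Of the 16 genes for transcription and 3′ end formation of histone mRNA, 12 were above 2-fold in all libraries. *Zfp473* (10.2) and *Lsm11* (9.38), parts of the processing machinery, had the highest median ratios. *Zfp473* had only 143 UMIs over all libraries, and its sum was under 3 UMIs in 3 libraries in each class, where it was set to 3 or left without a value, so its ratio and its place are uncertain. *Lsm10* had 1.71 and *Lsm1*, of mRNA decay, 0.745. *Npat*, the activator of histone transcription, had a ratio of 7.76. Of 14 histone chaperones, 13 were above 2-fold, led by *Asf1b* (195) and *Chaf1b* (141), which hand H3 and H4 to new DNA. The enterocyte-like sums of *Asf1b* and *Chaf1b* were under 3 UMIs in 3 and 2 libraries and were set to 3 there. *Hjurp* (3.04) and *Daxx* (1.35) were lowest. Of 11 replication-independent variants, 7 were above 2-fold. The 7 include *H1fx* and *H2afy2*, whose enterocyte-like sums were under 3 UMIs in 6 and 5 libraries. Their cycling sums were under 3 UMIs in 3 and 4 libraries, so both ratios are uncertain. *Cenpa* of the centromere (64.9) and *H2afx* (34.1) stood highest, and *H3f3a* (1.71) and *H2afj* (1.39) lowest. *H1f0*, the linker variant of resting cells, had 2.26 (1.91 to 2.46). All 41 S-phase genes and 49 of 51 G2/M genes were above 2-fold, with median ratios of 52.9 and 112. The G2/M list holds markers from which the cycling class was named, *Cenpf* among them, so its high ratios follow in part from that naming. *Mcm3* and *Mcm5* led the first list and *Gmnn* and *Pcna* were lowest in it, while *Cenpf* and *Ckap2l* led the second and *Jpt1* and *Tubb4b* were lowest. All 5 lists are read beside the 36.1% of all genes given above.

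Levels in cycling cells were then compared between diets and operations within libraries of the same label. A member with a mean of at least 50 UMIs was counted as higher or lower past a log2 ratio of 0.5. The HFD sham libraries serve in both comparisons of a label, and the crypt and villus libraries of a group share their mice, so that the comparisons are not independent.

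After the high-fat diet, histone levels in cycling cells of the villus-labelled libraries were lower than after the low-fat diet. H1 genes summed to 3667 CPM in LFD sham and 2408 CPM in HFD sham cells, a log2 ratio of -0.61 (95% limits -0.65 to -0.57), and core genes to 4383 and 2864 CPM, also -0.61 (-0.65 to -0.58). H2A, H2B, H3 and H4 genes had -0.66, -0.43, -0.74 and -0.58. Of 42 members compared, 25 were lower and 0 higher, beside 2.23% and 2.98% of 7817 genes. All 5 H1 genes were among the 25, from -0.67 for *Hist1h1d* to -0.57 for *Hist1h1e*. The lowest was *Hist1h3i* (137 to 65.5 CPM, -1.06) and the highest *Hist1h2bc* (109.9 to 141 CPM, 0.36), which in free-RNA droplets had 132 and 164 CPM. The S-phase list had 0 of 40 genes lower in this comparison, and the G2/M list 1 of 49, with sums of 11376 and 10040 CPM. With the study's free-RNA fractions subtracted, the H1 and core ratios were -0.44 and -0.46. The study estimated its highest fractions for the HFD sham libraries, which enter every comparison between conditions here.

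In the crypt-labelled libraries, which hold 46 and 43 cycling cells, the same comparison gave -0.35 (-0.43 to -0.28) for H1 and -0.42 (-0.49 to -0.35) for core histones. Of 27 members, 12 were lower, beside 5.05% of 3286 genes, and 1 was higher, *Hist1h2bc* at 0.69 (121 and 195 CPM in LFD sham and HFD sham, 6.15% of genes), where free-RNA droplets held 174 and 279 CPM of it. *Hist1h4h* was the lowest (166 to 77 CPM, -1.11). Here 7 of 22 S-phase genes were lower as well, and the S-phase sum was 2737 CPM in LFD sham and 2153 CPM in HFD sham cells. The ratios shrank to -0.03 for H1 and -0.13 for core with free RNA subtracted and to -0.09 and -0.27 with a limit of 10% mitochondrial UMIs.

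**Figure D5:**
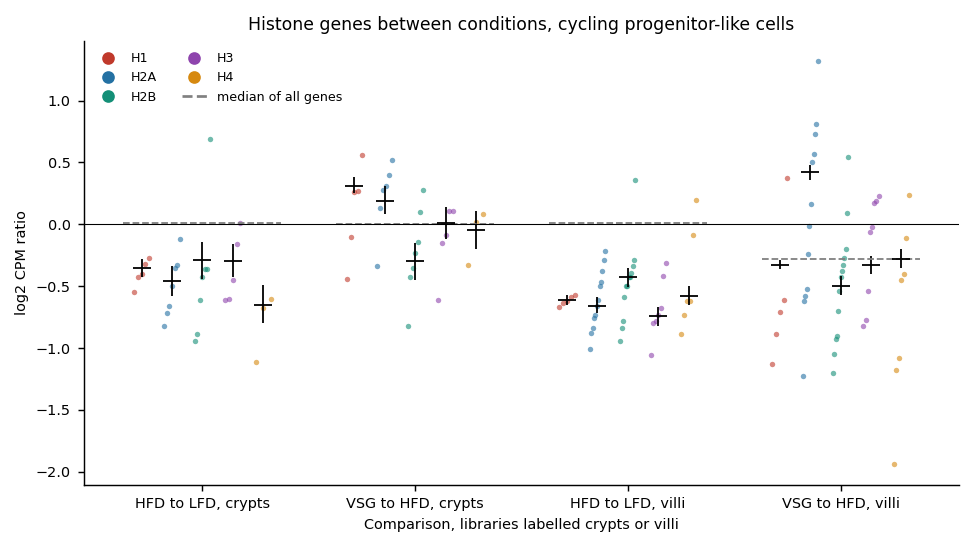
log2 ratio of CPM in cycling progenitor-like cells for members averaging 50 UMIs or more, by family and comparison; points are genes and the dashed line is the median of all genes compared. In the HFD to LFD comparison of villus-labelled libraries 25 of 42 genes lie below -0.5, and in the VSG to HFD comparison of these libraries the median of all genes is -0.28.

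After VSG, H1 and core histones differed from each other. In the crypt-labelled libraries H1 had 2682 CPM in HFD sham and 3332 CPM in HFD VSG cells, a log2 ratio of 0.31 (0.25 to 0.38), while core histones had 3055 and 3058 CPM, 0.00 (-0.06 to 0.07). Of 26 members, 2 were higher (*Hist1h1b*, 1050 to 1552 CPM, 0.56; *Hist1h2an*, 0.52) and 2 lower (*Hist1h2bc*, 195 to 111 CPM, -0.82; *Hist1h3i*, -0.61), beside 5.02% and 4.45% of 4382 genes. In the S-phase list 20 of 30 genes were higher in the same comparison. With the study's free-RNA fractions subtracted the ratios were -0.01 for H1 and -0.29 for core histones, and with a limit of 10% mitochondrial UMIs 0.11 and -0.23, so the direction of the H1 ratio depends on the first step.

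In the villus-labelled libraries the median of all genes was itself -0.28, and values are read against it. H1 had -0.33 (-0.36 to -0.29) and core histones -0.06 (-0.09 to -0.02), with H2A at 0.42, H2B at -0.50, H3 at -0.33 and H4 at -0.28. With median-of-ratios scaling, which centres the genes, H1 had -0.04 and core histones 0.23, and with the study's free-RNA fractions subtracted -0.52 and -0.25. Thinning of cells to equal depth brought the H1 and core ratios closer together, with values given in the section on processing. Of 45 members 20 were lower and 5 higher, beside 34.7% and 4.98% of 9004 genes, and relative to the median 11 were lower and 9 higher, beside 16.7% and 17.7%. *Hist1h2ap* was the highest (88.3 to 220 CPM, 1.32), followed by *Hist1h2ae* (0.81) and *Hist1h2af* (0.73), all H2A genes of the Hist1 cluster. *Hist1h2an* of the same cluster went from 12.9% to 6.44% of the H2A UMIs. *Hist1h2ap*, *Hist1h2af* and *Hist1h2an* have few unique stretches (7.63, 33.5 and 16.1%), so their counts are uncertain. *Hist1h4b* was the lowest (14.5 to 3.77 CPM, -1.94). Among H1 genes *Hist1h1c* (-1.13) and *Hist1h1e* (-0.89) were low and *Hist1h1b* (814 to 1054 CPM, 0.37) was not, and without *Hist1h1e* the H1 ratio was 0.01 (-0.04 to 0.06).

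H1 was also below core histones in other classes of HFD VSG villi against HFD sham villi. No free RNA was subtracted for the values of other classes in this paragraph. In stem-like cells H1 had -1.63 and core -0.53, with a median of all genes of -0.27. In enterocyte-like cells H1 had -1.14 and core 0.13, with a median of -0.02, where *Hist1h1e* had 140.3 and 55 CPM in HFD sham and HFD VSG cells (-1.35) and *Hist1h2bc* 286 and 337 CPM (0.23). For HFD sham against LFD sham villi, 22 of 31 members were lower in goblet-like cells (3.97% of genes) and 13 of 14 in early progenitor-like cells (8.29% of genes). Summed G2/M genes moved alongside in both classes, from 3146 to 2284 CPM and from 4057 to 1719 CPM, and their part in these values was not tested. In the crypt-labelled libraries the goblet-like cells went the other way, with log2 ratios of 0.52 for H1 and 0.51 for core histones beside G2/M sums of 1261 and 2650 CPM in LFD sham and HFD sham, while early progenitor-like cells had -0.39 and -0.24.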

How the data were processed

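The 6 libraries of jejunal epithelial cells from fasted mice, dissociated with EDTA and dispase, were made with the 10x 3′ chemistry, and the submitters' processing notes name Cell Ranger 6.0.0 and mm10. The authors deposited raw and filtered matrices of UMI counts per gene and barcode, a whole-number unit without normalization. Filtered barcodes, 7765 to 12012 per library with 60522766 to 155522445 UMIs, were kept with at least 750 genes, at most 20% mitochondrial UMIs and after removal of simulated-neighbour doublets at 0.8% per 1000 barcodes. Cells were integrated and clustered (Seurat 5.3.0, sctransform 0.4.2, R 4.3.3; 2000 variable genes, 30 components, resolution 0.4), with 78 histone genes left out. A cluster took a class name if more than 50% of that class's markers, and at least 3, were at least 2-fold above the median cluster and found in 10% of its cells, and if at least 1 of its own markers was among its 10 leading genes. Enterocyte-like clusters were exempt from the last condition: in all 5, 7 to 9 of 10 markers passed but 0 of the 5 had one among its leading genes. These thresholds and the exemption were set after the data were seen. Counts were summed per class and library with at least 20 cells, scaled to CPM and given exact Poisson limits, shares exact Clopper-Pearson limits (95%, SciPy 1.17.1, NumPy 2.4.6, Python 3.11.15). The calculation of ratio limits was checked on simulated Poisson counts for the HFD to LFD villi comparison: 97.5% of 200 changed genes among 9480 lay within them. The simulation held no variation between cells or mice, so it cannot show that the limits cover such variation. Sums below 3 were set to 3. Gene models came from GENCODE M21 and promoters from RefSeq.

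With 1 library per group no test of diet or operation could be made. No other test was made, and UMI intervals cover counting error only. The members, gene lists and comparisons were chosen with earlier results of these data known. Genes named in the text are every H1 gene, the 3 members with most UMIs in each core family, the 3 highest and lowest ratios between classes, the highest and lowest member in each comparison between conditions, and the 2 highest and 2 lowest genes of each pathway list; others were named after their values were seen. Alternatives changed the cell filters, the doublet rate, the clustering, the free-RNA subtraction, the depth, the scaling and the member list.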

Additional observations from a re-analysis of the deposited data

How the results depend on the processing

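Of 151 recomputed values, 114 stayed within the counting limits of the reported value or, for counts of genes, within 1.5 times, 35 moved further and 2 changed direction. Both changes of direction concern VSG against HFD: H1 in crypts became -0.01 after subtraction of free RNA at the study's fractions, and core histones in villi became 0.23 under median-of-ratios scaling, which also moved H1 in villi to -0.04. The other log2 ratios with free RNA subtracted were, for H1 and core, -0.03 and -0.13 (HFD to LFD, crypts), -0.44 and -0.46 (HFD to LFD, villi) and -0.52 and -0.25 (VSG to HFD, villi), and -0.29 for core in VSG to HFD, crypts. At most 10% mitochondrial UMIs gave an H1 share of 43.1% in LFD sham crypts, and ratios of -0.09 and -0.27 (HFD to LFD, crypts), 0.11 and -0.23 (VSG to HFD, crypts), -0.70 and -0.68 (HFD to LFD, villi) and -0.11 for core (VSG to HFD, villi). Doublet removal at 1.6% per 1000 gave -0.26 and -0.35 for HFD to LFD, crypts. Thinning to 1500 UMIs gave H1 shares of 44.8% (LFD sham villi), 44% (HFD sham villi), 53.7% (HFD VSG crypts) and 41.7% (HFD VSG villi), and ratios of -0.46 for H1 (HFD to LFD, crypts), 0.40 and -0.08 (VSG to HFD, crypts) and -0.39 and -0.25 (VSG to HFD, villi). Totals without mitochondrial and damaged-droplet genes gave -0.39 and -0.12 (VSG to HFD, villi). Without *Hist1h1e*, chosen after seeing the data, the H1 shares were 33.5, 32, 35.1, 31.6, 40.6 and 32.7%. The cause of these shifts was not tested, except that the last follows from leaving out a large H1 gene. The count of members above 2-fold, 59 of 63 as reported, was 49 of 52 with a value after thinning, 54 of 62 with at most 10% mitochondrial UMIs and at resolution 0.8, 57 of 63 under median-of-ratios scaling, 58 of 62 without the HFD VSG villi library and 59 of 63 without the enterocyte-like clusters led by immune genes, a choice made after seeing the data. At resolution 0.8 only clusters of 1762 and 245 cells were named enterocyte-like, against 8826 cells as reported, so that count rests on a much smaller class. The share over all genes is not given for any of these settings. No paired analysis of diet or operation was possible because these comparisons have 1 library on each side. The crypt-labelled and villus-labelled libraries of a pool share mice and were not compared by a test. The crypt-labelled comparisons rest on 43 to 90 cycling cells per library.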

Other observations

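The goblet-like class held 2 clusters that differed in histone level. The larger, of 1066 cells and led by *Agr2*, *Ccl9* and *Spink4*, had 327 to 1083 CPM of H1 and 513 to 1161 CPM of core histones over the libraries. The smaller, of 366 cells and led by the secreted mucus genes *Fcgbp*, *Clca1*, *Muc2* and *Zg16*, had 159 to 925 CPM of H1 and 236 to 846 CPM of core histones. Of the 10 cycling markers, 9 were raised in the larger cluster and 1 in the smaller, whose median depths were 15597 and 3649 UMIs per cell, and the part of either in the difference was not tested. Immune-like cells, which in this tissue are mostly intraepithelial lymphocytes, held 219.7 to 764 CPM of H1 in 5 libraries. *Hist1h1e* gave 43.6 to 60.2% and *Hist1h1c* 18.4 to 43.8% of their H1 UMIs.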
